A study of Mus musculus with 6 samples.

Results

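FGF receptors and FGF ligands were followed in mouse breast tumors as 10 genes taken by name from 18460 genes listed in at least 1 tumor. The 4 receptor genes were *Fgfr1*, *Fgfr2*, *Fgfr3* and *Fgfr4*, and the 6 ligand genes were *Fgf1*, *Fgf2*, *Fgf7*, *Fgf8*, *Fgf10* and *Fgf18*. All 10 were found by NCBI Gene identifier. The choice used no measured value as its rule, but it was made with earlier results of these data known, and *Fgfr1* is a gene that the study itself names from these tumors.

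The test group held 3 breast tumors from K14-TSLPtg;PyMTtg;Rag1KO mice that had received CD4+ T cells, and the control group held 3 breast tumors from PyMTtg;Rag1KO mice that had received CD4+ T cells. All 6 mice carried the MMTV-PyMT transgene, which drives spontaneous breast tumors, on the Balb/c strain, and all lacked *Rag1* and so their own T and B cells. The groups differed by the K14-TSLP transgene, which makes thymic stromal lymphopoietin in keratinocytes. CD4+ T cells were given at 4 wk of age, tumors were collected at 18 to 20 wk, and bulk RNA was sequenced. In bulk RNA, fewer cells of a type and less RNA per cell cannot be told apart.

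FGFs are secreted proteins that bind receptor tyrosine kinases together with heparan sulfate on the cell surface. The bound receptors phosphorylate the adaptor FRS2, which recruits the RAS-ERK and PI3K-AKT pathways, and ERK then turns on feedback inhibitors such as Sprouty and *Dusp6* along with the transcription factors *Etv4* and *Etv5*. In the mammary gland, *Fgf10* from the mesenchyme acts on *Fgfr2* in the epithelium during budding and branching, and extra copies of *FGFR1* are found in part of human breast cancers.

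Expected counts, which are estimates of the reads from each gene, summed to between 8373390 and 9449565 per tumor. Luminal epithelial markers were present in every tumor, with *Krt8* at 373 to 1442 CPM, which are counts scaled to library depth. The transgene and the knockout could not be read from these tumors. *Tslp* had 2, 2 and 3 counts in the control tumors and 12, 7 and 2 in the test tumors, and *Rag1*, which both groups lack, had 4 to 27. Control replicate 2 stood apart from its own group. Across genes, its log2 CPM had a Pearson correlation of 0.874 and 0.908 with control replicates 1 and 3, against 0.921, 0.927 and 0.935 with the 3 test tumors. Results that rest on it are given with and without it. It was picked out because it lay near the test tumors, so leaving it out favors a difference between the groups. The p-values without it describe how much rests on this tumor and are no independent support.

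Levels of different genes were compared as FPKM, fragments scaled to transcript length and library depth, because only a value per length can be set beside that of another gene. *Fgfr1* had the highest median over the 6 tumors at 29.0 FPKM, followed by *Fgf1*, the ligand that binds all FGF receptors, at 9.25 FPKM. Both stood above the next gene in all 6 tumors. *Fgfr2* and *Fgfr3* came next with medians of 2.51 and 2.45 FPKM, and they could not be ordered, since *Fgfr2* was the higher of the pair in 3 of 6 tumors. The other 6 genes had medians under 1 FPKM. *Fgf7* was at 0.995 FPKM, *Fgf8* at 0.545, *Fgf2* at 0.43, *Fgfr4* at 0.355, *Fgf10* at 0.16 and *Fgf18* at 0.035. Within this lower part, a gene stood above the next in 2 to 5 of the 6 tumors.

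**Figure D1:**
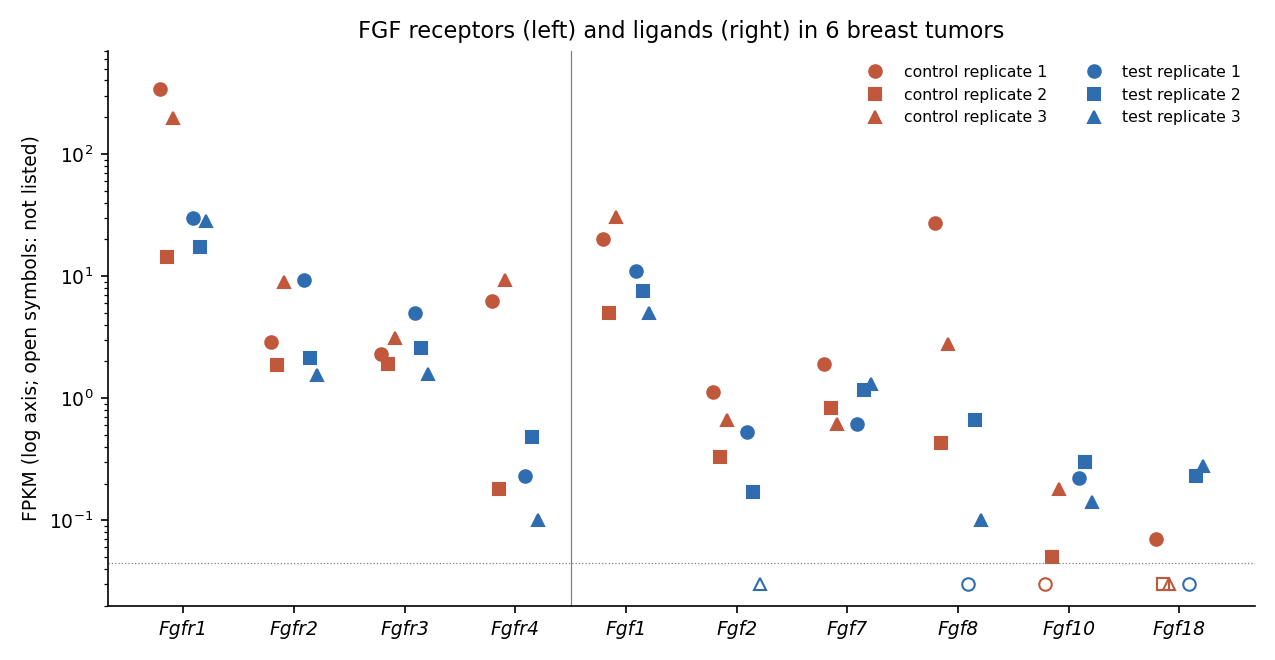
FPKM (log axis) of the 10 genes in each tumor, with control tumors in red and test tumors in blue and 1 symbol per replicate number. Open symbols under the dotted line mark tumors in which a gene was not listed. *Fgfr1* reached 338 and 197 FPKM in control replicates 1 and 3 and lay between 14.3 and 29.6 in the other 4 tumors, while *Fgfr3* lay between 1.59 and 5.03 in all 6.

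*Fgfr1* encodes the main FGF receptor of mesenchymal cells and is the receptor most often tied to breast cancer. The gene lies at chr8:25518759-25575718 on GRCm38. Its level was 338, 14.3 and 197 FPKM in control replicates 1, 2 and 3, and 29.6, 17.2 and 28.3 FPKM in test replicates 1, 2 and 3. Control replicates 1 and 3 were far above every other tumor, control replicate 2 was the lowest of all, and the groups overlapped. The mean was 183 ± 162 FPKM in control tumors and 25.1 ± 6.83 FPKM in test tumors (SD, n = 3). The highest tumor exceeded the lowest by 23.7 times.

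On the CPM scale, edgeR's quasi-likelihood test put *Fgfr1* 7.46-fold lower in test tumors (log2 fold change -2.90, SE 0.95). This did not pass the threshold after Benjamini-Hochberg adjustment over 13706 genes (edgeR adjusted p = 0.475). An exact two-sided permutation test over the 20 splits of the tumors gave p = 0.4, where 0.1 is the smallest p that 3 against 3 allows. The test tumor was the lower in 6 of 9 test and control pairs. Without control replicate 2 the log2 fold change was -3.45 (SE 0.42, 10.9-fold lower) and edgeR's adjusted p was 0.0199. Without control replicate 1 it was -2.03 (SE 0.88, edgeR unadjusted p = 0.0526). Over the alternatives other than a pooled Poisson test, which ignores the spread between tumors, the adjusted p of *Fgfr1* ran from 0.0199 to 1.

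*Fgfr4*, a receptor best known in liver and regenerating muscle, was uneven in the same way at a far lower level. The gene lies at chr13:55152818-55168759 and has a single listed transcript. Its expected counts were 183, 5 and 266 in the control tumors and 6, 13 and 3 in the test tumors, in the order of the replicates. Control replicates 1 and 3 again stood above all others, and control replicate 2 lay among the test tumors, so that the groups overlapped. The fold change in the same test was 19.2-fold lower in test tumors (log2 -4.26, SE 1.26, p = 0.0105, edgeR adjusted p = 0.454), with the test tumor lower in 7 of 9 pairs and an exact permutation p of 0.3. Without control replicate 2 it was 28.5-fold lower (log2 -4.84, SE 0.63, edgeR adjusted p = 0.0262), and over the same alternatives the adjusted p ran from 0.00659 to 1. The test tumors held only 3 to 13 counts, so the size of this fold is poorly fixed.

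*Fgfr2*, whose epithelial isoform is the receptor for *Fgf7* and *Fgf10*, had another pattern. Its level was 2.87, 1.87 and 9 FPKM in the control tumors and 9.32, 2.14 and 1.55 FPKM in the test tumors. Control replicate 3 and test replicate 1 were high and the other 4 low, so each group held both kinds of tumor. The log2 fold change was -0.10 (SE 0.79, edgeR adjusted p = 0.976). Leaving out 1 tumor at a time moved it between -1.28 and 0.80, so its direction rested on single tumors.

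*Fgfr3*, known for its part in bone growth and in bladder cancer, was the steadiest of the receptors. Its level was 2.31, 1.91 and 3.14 FPKM in the control tumors and 5.03, 2.58 and 1.59 FPKM in the test tumors. All control values lay within the range of the test tumors, whose highest was test replicate 1. The log2 fold change was 0.32 (SE 0.47, edgeR adjusted p = 0.863), and it was -0.20 without test replicate 1.

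The stretch of 250 bases before the annotated start is shown for the receptor with the largest fold and for the steadiest, from RefSeq on GRCm38.p6. Capitals mark GGAA or its reverse complement TTCC, the core that ETS factors such as *Etv4* and *Etv5* bind. Of the 10 genes, 7 had an entry in that table, and *Fgfr1*, *Fgf1* and *Fgf8* did not.
*Fgfr4*, chr13:55152568-55152817, plus strand: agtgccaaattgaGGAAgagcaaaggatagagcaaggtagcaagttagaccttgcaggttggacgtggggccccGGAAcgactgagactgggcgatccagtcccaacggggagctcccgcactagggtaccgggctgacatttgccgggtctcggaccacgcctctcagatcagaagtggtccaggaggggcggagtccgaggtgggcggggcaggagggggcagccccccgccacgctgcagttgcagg
*Fgfr3*, chr5:33721474-33721723, plus strand: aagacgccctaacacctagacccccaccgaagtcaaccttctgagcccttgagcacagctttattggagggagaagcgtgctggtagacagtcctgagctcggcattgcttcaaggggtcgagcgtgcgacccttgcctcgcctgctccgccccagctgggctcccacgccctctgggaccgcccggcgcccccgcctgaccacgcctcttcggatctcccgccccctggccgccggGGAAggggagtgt
The window of *Fgfr4* held 2 matches on either strand and that of *Fgfr3* held 1, against a median of 3 over 27025 promoters. At least 1 match was present in 93.4% of all promoters and at least 2 in 76.9%. The longer run CCGGAAG, which contains the core, was in 7.05% of promoters and in none of the 7 windows.

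The sum of the receptors followed *Fgfr1*. The 4 receptors together came to 349, 18.2 and 219 FPKM in the control tumors and 44.2, 22.4 and 31.6 FPKM in the test tumors (exact permutation p = 0.4). The other 3 receptors without *Fgfr1* summed to 11.4, 3.96 and 21.4 FPKM in control tumors and 14.6, 5.20 and 3.24 FPKM in test tumors (exact permutation p = 0.6). Both sums overlapped between groups.

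*Fgfr1* was the leading receptor transcript in every tumor. Its share of receptor FPKM was 96.7%, 78.3% and 90.2% in the control tumors and 67.0%, 76.8% and 89.7% in the test tumors. The mean share was 88.4 ± 9.37% in control and 77.9 ± 11.4% in test tumors (SD, n = 3), a difference of -10.5 percentage points that did not pass an exact permutation test (p = 0.2). It was -15.6 points without control replicate 2, -16.5 without test replicate 3, -6.38 without control replicate 1 and -5.13 without test replicate 1. *Fgfr2* held its largest share, 21.1%, in test replicate 1. The log2 ratio of *Fgfr1* to *Fgfr2*, which library scaling cannot change, was on average 1.78 lower in test tumors (exact permutation p = 0.3), and it stayed lower by 0.74 to 2.68 with any 1 tumor left out.

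**Figure D2:**
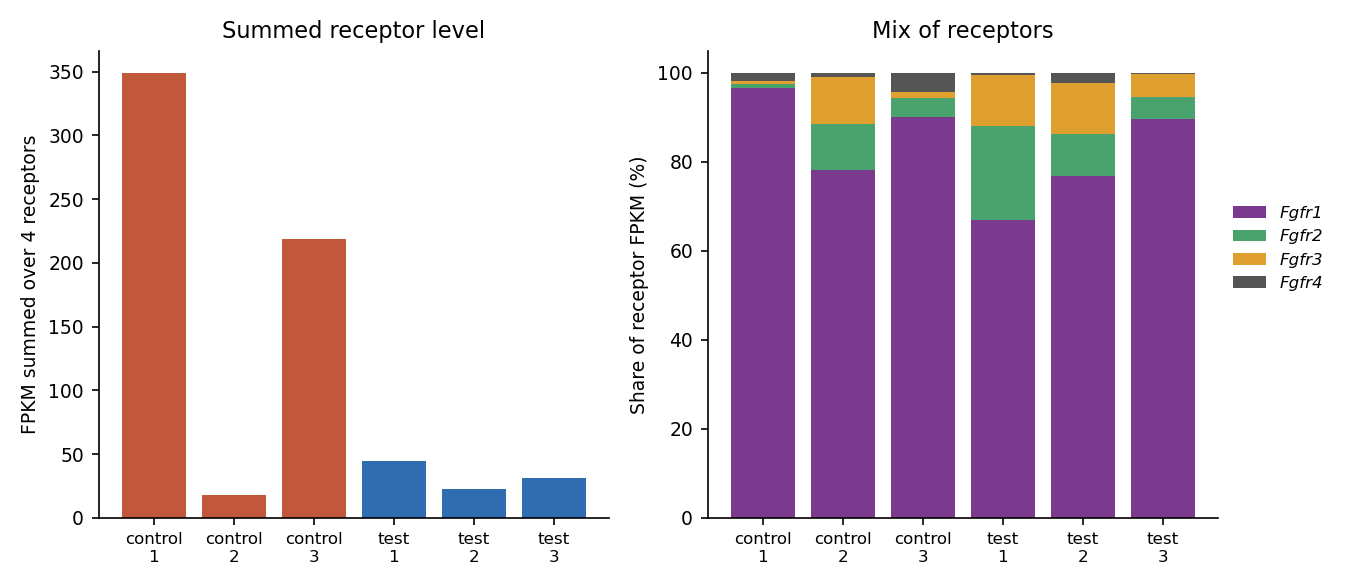
Left, FPKM summed over the 4 receptors in each tumor, and right, the share of each receptor in that sum (%). The sum is 349 and 219 in control replicates 1 and 3 and at most 44.2 in the other tumors, while *Fgfr1* makes up from 67.0% to 96.7% of it.

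*Fgf1* was the ligand with the highest level in 5 of 6 tumors. Its level was 20.2, 4.99 and 30.5 FPKM in the control tumors and 10.99, 7.5 and 5.03 FPKM in the test tumors. As for *Fgfr1*, control replicates 1 and 3 were the highest tumors and control replicate 2 the lowest, within a smaller range. The log2 fold change was -1.24 (SE 0.61, 2.37-fold lower in test tumors, p = 0.0784, edgeR adjusted p = 0.655; exact permutation p = 0.4). Without control replicate 2 it was -1.70 (edgeR adjusted p = 0.0932). The expected counts of *Fgf1* were not whole numbers in any tumor, as they are where reads are divided among genes, which makes its level less certain than those of the receptors, whose counts were whole, to within 0.005, in all 6.

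*Fgf8*, a ligand activated in some virus-induced mouse mammary tumors, was the highest ligand in control replicate 1. Its expected counts were 284, 4 and 28 in the control tumors and 0, 6 and 1 in the test tumors. Control replicate 1 alone held 89.5% of the FPKM summed over the control tumors, and the groups overlapped, with the test tumor lower in 8 of 9 pairs (exact permutation p = 0.2). *Fgf8* did not pass the filter on low counts and was not part of the main test. Without that filter edgeR's adjusted p was 0.409, and 3 of the 10 genes (*Fgf8*, *Fgfr1* and *Fgfr4*) had an unadjusted p under 0.05, against 8.04% of all genes. Without control replicate 2 the gene passed the filter, but only through its counts in control replicates 1 and 3. The filter thus admitted it through the group where it was high, and its p in that fit is no support for a difference.

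*Fgf7*, the keratinocyte growth factor made by stromal cells, had expected counts of 47.2, 19.8 and 14.99 in the control tumors and 13.9, 26.8 and 33.0 in the test tumors. The groups overlapped, the log2 fold change was -0.13 (SE 0.62, edgeR adjusted p = 0.965), and its counts were not whole either. *Fgf10*, the ligand of mammary branching, had 0, 2.11 and 7.43 counts in the control tumors and 8.57, 12.1 and 6.14 in the test tumors. *Fgf2*, a ligand stored in the matrix, reached at most 7 counts and *Fgf18* at most 4. *Fgf2*, *Fgf10* and *Fgf18* did not pass the filter on low counts. Without the filter their log2 fold changes were -1.57 (SE 1.25), 1.63 (SE 1.13) and 2.44 (SE 1.64), and no difference was detectable for them at this depth.

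The 6 ligands summed to 50.4, 6.63 and 34.7 FPKM in the control tumors and 12.4, 10.02 and 6.85 FPKM in the test tumors. Control replicates 1 and 3 were again the highest and control replicate 2 the lowest (exact permutation p = 0.4). *Fgf1* made up 40.0%, 75.3% and 87.8% of the sum in control tumors and 88.9%, 74.9% and 73.4% in test tumors, and in control replicate 1 it was exceeded by *Fgf8* at 53.9%. The 12 other secreted FGF genes on the list were near or at 0. None passed the filter on low counts, and their sum reached at most 4.24 CPM in any tumor.

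Over the 10 genes, 6 could be tested, and 5 of these had a log2 fold change below 0, against 48.5% of all tested genes. None passed a false discovery rate of 0.05, and neither did any gene of the table (0 of 13706, 0.0%). At an unadjusted p under 0.05, 2 of the 6 (*Fgfr1* and *Fgfr4*) were lower in test tumors, where 5.26% of all tested genes were lower and 8.41% lay in either direction. No tested member had groups that did not overlap, which 12.0% of all tested genes did. Without control replicate 2, 7 members could be tested, 4 had an unadjusted p under 0.05 (*Fgfr1*, *Fgfr4*, *Fgf1* and *Fgf8*, against 14.3% of all genes) and 2 passed the false discovery rate (*Fgfr1* and *Fgfr4*, against 1.28%). Of these, *Fgf8* entered the fit only through the control tumors where it was high, so it adds no support to that count. *Fgfr4* also needed its high control tumors to pass the filter in that fit, so its call there adds none either. Without control replicate 1, only *Fgfr4* had an unadjusted p under 0.05. DESeq2 on all 6 tumors passed *Fgfr1* (adjusted p = 0.0203) and *Fgfr4* (adjusted p = 0.00659), against 2.28% of all genes.

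**Figure D3:**
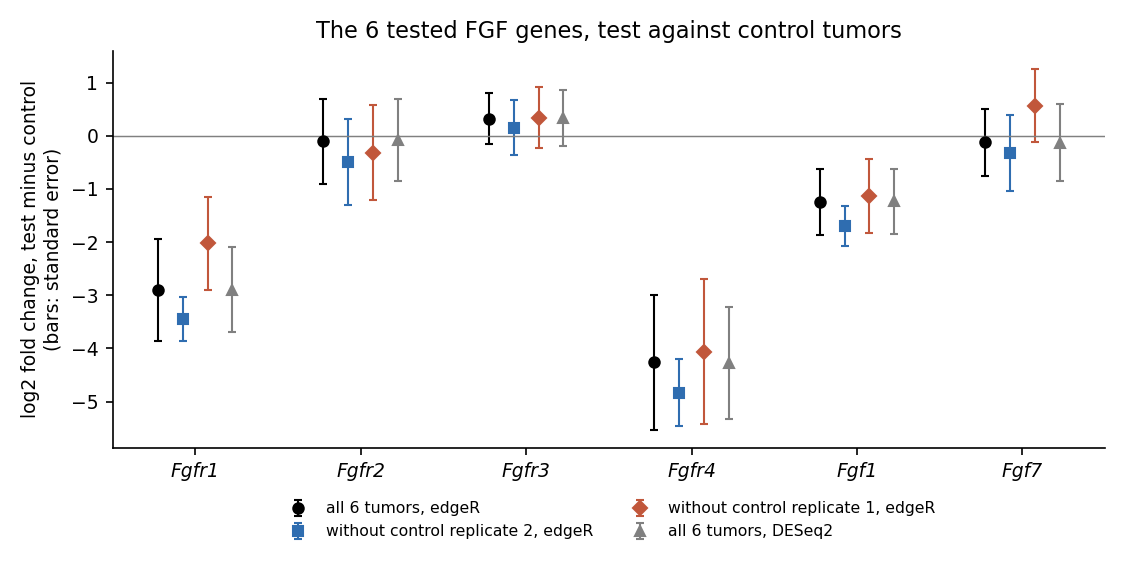
Log2 fold change, test minus control, of the 6 tested genes with bars for the standard error, from all 6 tumors, without control replicate 2, without control replicate 1 and with DESeq2. *Fgfr1* lies between -2.03 and -3.45 and *Fgfr4* between -4.06 and -4.84, while *Fgf7* changes sign without control replicate 1.

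Marker genes of the cell types a breast tumor can hold were summed beside these levels. Luminal markers (*Epcam*, *Krt8*, *Krt18* and 7 others) summed to 2437, 4573 and 2217 CPM in the control tumors and 6251, 5712 and 6023 CPM in the test tumors, and 9 of the 10 had a log2 fold change above 0. Control replicate 2, the control tumor with little *Fgfr1*, had the highest luminal sum of its group. Of the 8 skeletal muscle markers all were higher in test tumors, at 7.64, 189 and 5.75 CPM in control and 975, 182 and 105 CPM in test tumors. Both control tumors with high *Fgfr1* had the lowest muscle sums, and *Ckm* was at 0 in control replicate 1. Basal epithelial markers were lower in test tumors for 7 of 8 genes, at 915, 537 and 3547 CPM in control and 1402, 761 and 544 CPM in test tumors. The part of these cells in the levels of the FGF genes was not tested.

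The luminal sums did not overlap between the groups, at most 4573 CPM in control and at least 5712 CPM in test tumors. The muscle and basal sums overlapped, as did the sums of the marker lists that follow. Fibroblast markers, from the cells that make much *Fgf7* and *Fgf10* in normal tissue, summed to 1888 to 3558 CPM in control and 1658 to 5851 CPM in test tumors, with 6 of 10 higher in test tumors. Adipocyte markers were at 0.347 to 7.14 CPM in control and 2.02 to 244 CPM in test tumors, with both tested genes of 6 higher and *Plin1*, *Lep* and *Retn* at 0 in 1 or more tumors. Endothelial markers summed to 94.5 to 135 CPM in control and 111 to 137 CPM in test tumors (4 of 6 higher), and macrophage markers to 286 to 615 and 269 to 640 CPM (2 of 6 higher). T cell markers were near the lowest levels, at 6.6 to 14.4 CPM in control and 5.19 to 10.6 CPM in test tumors (2 of 4 tested genes higher), and *Cd3g* was at 0 in 1 tumor. Neural and Schwann cell markers summed to 541 to 670 CPM in control and 364 to 623 CPM in test tumors, and epidermal markers to 2.38 to 3.47 and 2.31 to 13.7 CPM, with *Flg* at 0 in all 6 tumors.

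Among coreceptors, the decoy receptor and ligand carriers, 16 of 19 genes were tested, and 11 of the 16 were lower in test tumors with a median log2 fold change of -0.61, against 0.018 over all tested genes. None passed the false discovery rate. At an unadjusted p under 0.05, 6 were lower and 2 higher, against 5.26% and 3.15% of all tested genes. *Fgfrl1*, which encodes an FGF receptor without a kinase domain, was at 289, 46.4 and 209 CPM in control tumors and 26.5, 33.1 and 34.7 CPM in test tumors. Here every test tumor was below every control tumor, as for 5.86% of all tested genes (5.77-fold lower, log2 -2.53, SE 0.60, edgeR adjusted p = 0.394). Control replicate 2 was again the lowest of its group, and without it edgeR's adjusted p was 0.0140. With DESeq2 on all 6 tumors the adjusted p was 0.00261.

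The syndecan *Sdc3*, a heparan sulfate proteoglycan, was at 921, 189 and 602 CPM in control tumors and 62.3, 71.8 and 173 CPM in test tumors, also without overlap (log2 -2.48, SE 0.65, edgeR adjusted p = 0.407). *Cdh2*, the N-cadherin that binds *Fgfr1* at the membrane, was at 106, 2.81 and 96.1 CPM in control tumors and 4.04, 3.54 and 8.06 CPM in test tumors. It followed the pattern of *Fgfr1*, with control replicate 2 the lowest tumor (log2 -3.71, SE 1.11, edgeR adjusted p = 0.454, and 0.0140 without that tumor). *L1cam*, a cell adhesion molecule that also binds *Fgfr1*, lay the other way at 13.4, 8 and 14.9 CPM in control tumors and 57.8, 16.1 and 49.4 CPM in test tumors. Its groups did not overlap, as for the 6.12% of tested genes with every test tumor above every control tumor (log2 1.76, SE 0.50, edgeR adjusted p = 0.439). *Sdc1*, the epithelial syndecan, was the other gene of the list that was higher at an unadjusted p under 0.05 (log2 0.70, SE 0.30), and it was named after its values were seen. Of the list, 3 genes were called lower and 1 higher by DESeq2 (25.0% of the 16 tested, against 2.28% of all genes), and 2 lower without control replicate 2 (11.8% of the 17 tested, against 1.28%).

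Enzymes that build and trim heparan sulfate showed smaller differences. All 15 were tested, 13 were lower in test tumors with a median log2 fold change of -0.41, and none had an unadjusted p under 0.05. Adaptors and kinases between the receptors and ERK were balanced, with 12 of 23 lower and a median of -0.014. *Frs2*, the docking adaptor of the receptors, had a log2 fold change of 0.02 (SE 0.39). *Hras* was the only gene of that list with an unadjusted p under 0.05, at 48.6, 54.9 and 60.7 CPM in control tumors and 104, 89.6 and 64.0 CPM in test tumors (log2 0.65, SE 0.26, edgeR adjusted p = 0.556). Its groups did not overlap. Of the 23 genes, 3 had every test tumor above every control tumor, against 6.12% of all tested genes. Every test tumor was below every control tumor for 1 gene, against 5.86%.

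Of the targets and feedback inhibitors of ERK, 22 of 23 were tested and 19 were lower in test tumors (86.4%, against 48.5% of all tested genes), with a median log2 fold change of -0.57. None passed the false discovery rate, and 5 had an unadjusted p under 0.05, all of them lower, against 5.26% of all tested genes lower and 3.15% higher at that p. DESeq2 on all 6 tumors called 2 of the 22, *Il17rd* and *Etv5* (9.09%, against 2.28% of all genes), and put 9 lower at an unadjusted p under 0.05. *Il17rd*, a membrane inhibitor of FGF signaling also called Sef, was at 131, 11.03 and 66.5 CPM in control tumors and 8.76, 8.67 and 6.58 CPM in test tumors. All test tumors were below all control tumors, as for 5.86% of all tested genes (8.68-fold lower, log2 -3.12, SE 0.78, edgeR adjusted p = 0.394, DESeq2 adjusted p = 0.00212). *Etv5*, a transcription factor induced by ERK, was at 1209, 169 and 735 CPM in control tumors and 167, 132 and 211 CPM in test tumors. Control replicate 2 lay among the test tumors (log2 -2.05, SE 0.64, edgeR adjusted p = 0.46, DESeq2 adjusted p = 0.0375).

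*Spry1*, a Sprouty inhibitor of the pathway, was at 121, 22.3 and 82.4 CPM in control tumors and 32.5, 21.97 and 29.1 CPM in test tumors (log2 -1.43, SE 0.55, edgeR adjusted p = 0.545). *Spred3* and *Egr1* had log2 fold changes of -1.27 and -0.90, and their groups did not overlap. With *Il17rd* they made up the 3 of 22 genes with every test tumor below every control tumor, against 5.86% of all tested genes. No gene of the list had every test tumor above every control tumor. The other genes best known as readouts of FGF signaling were lower in test tumors without reaching an unadjusted p of 0.05. The log2 fold change was -1.18 (SE 0.57) for *Spry2*, -1.18 (SE 0.53) for the transcription factor *Etv4*, -1.03 (SE 0.49) for the ERK phosphatase *Dusp6* and -0.49 (SE 0.77) for *Spry4*. The 3 genes that were higher were *Dusp5*, *Phlda1* and *Ier2*, named after their values were seen, at 0.56, 0.40 and 0.07.

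Counts of this list moved with single tumors. Without control replicate 2, 19 of 22 were lower, 9 with an unadjusted p under 0.05, where 1283 of all 14166 genes tested were lower at that p. EdgeR called 3 of the 22, against 1.28% of all genes (*Il17rd* with adjusted p = 0.0154, *Etv5* with 0.0353 and *Spry1* with 0.0496). Without control replicate 1, 15 of 22 were lower and 2 had an unadjusted p under 0.05. That number was also 2 without control replicate 3, without test replicate 1 and without test replicate 2. For the coreceptors, 3 to 4 genes were lower at that p without any tumor other than control replicate 2, and 9 without that tumor.

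**Figure D4:**
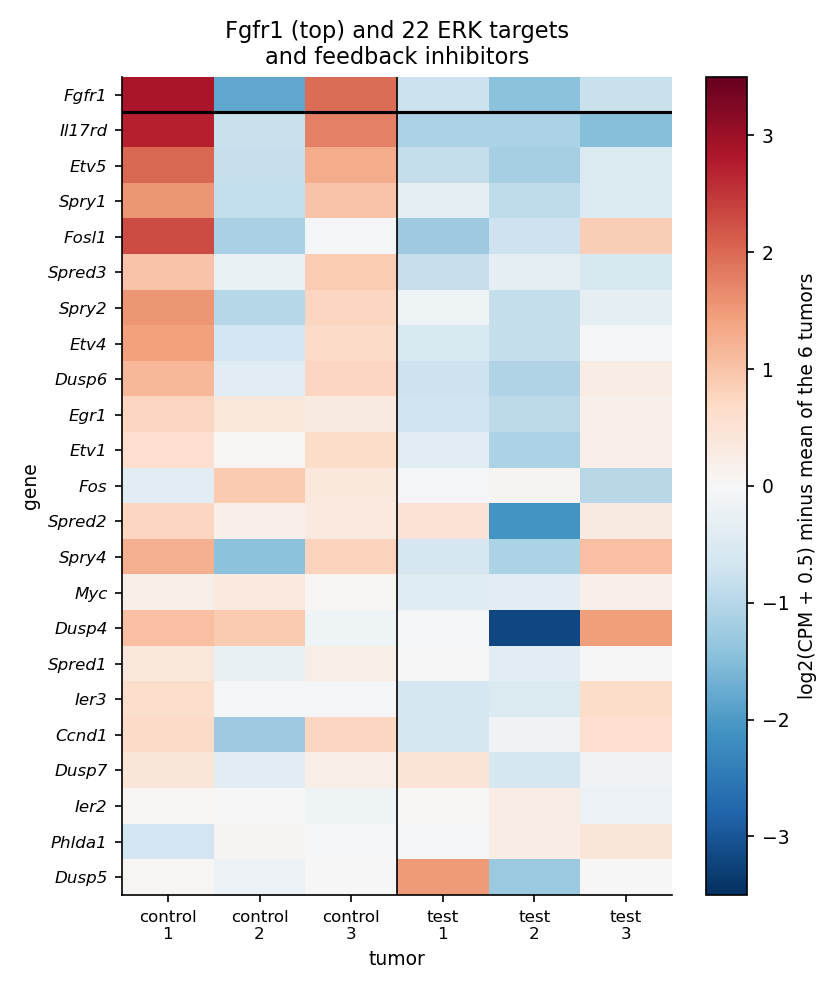
Log2(CPM + 0.5) minus the mean of the 6 tumors for *Fgfr1* (top) and the 22 tested ERK targets and feedback inhibitors, with a column per tumor. The rows of *Il17rd*, *Etv5* and *Spry1* are high in control replicates 1 and 3 and low in control replicate 2 and the test tumors, as is *Fgfr1*, while lower rows show little of this.

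Exon choice decides which ligands *Fgfr1*, *Fgfr2* and *Fgfr3* bind, and *Esrp1* and *Esrp2* are the splicing factors that favor the epithelial form. Of 10 such splicing factors 5 were lower in test tumors, with a median log2 fold change of -0.0026. *Esrp1* was at 94.6, 276 and 137 CPM in control tumors and 263, 161 and 270 CPM in test tumors (log2 0.45, SE 0.43, edgeR adjusted p = 0.799). Both control tumors with high *Fgfr1* had the lowest *Esrp1*, while the groups overlapped. *Esrp2* showed 17.1, 60.7 and 28.1 CPM in control tumors and 61.9, 22.1 and 41.9 CPM in test tumors (log2 0.25, SE 0.54, edgeR adjusted p = 0.912). *Ptbp2*, a repressor of exons in neural genes, was the only factor with an unadjusted p under 0.05 (log2 0.90, SE 0.35, edgeR adjusted p = 0.551). The estimated transcript length of *Fgfr1* varied by 1.87% between tumors, from 4845 to 4936 bases, that of *Fgfr2* by 4.55% and that of *Fgfr3* by 3.02%. These lengths are weighted over transcripts and do not show which exon was used.

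Genes around *Fgfr1* had log2 fold changes on both sides of 0, from -0.37 for *Pomk* to 0.71 for *Star*, both named after their values were seen. Within 1 Mb on either side 18 genes were tested, of which 9 were lower and 9 higher in test tumors, with a median log2 fold change of -0.0058 and none with an unadjusted p under 0.05. The nearest were *Letm2*, 2760 bases after the end of *Fgfr1* (log2 0.02, SE 0.56), and the histone methyltransferase gene *Nsd3*, which is amplified together with *FGFR1* in human tumors (log2 -0.09, SE 0.36). *Nsd3* was at 84.9, 75.7 and 90.0 CPM in control tumors and 107, 40.2 and 88.0 CPM in test tumors. Copy number was not measured, and its part in the level of *Fgfr1* was not tested. *Plpp5* and *Ddhd2* followed at 0.51 (SE 0.27) and -0.29 (SE 0.33).

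**Figure D5:**
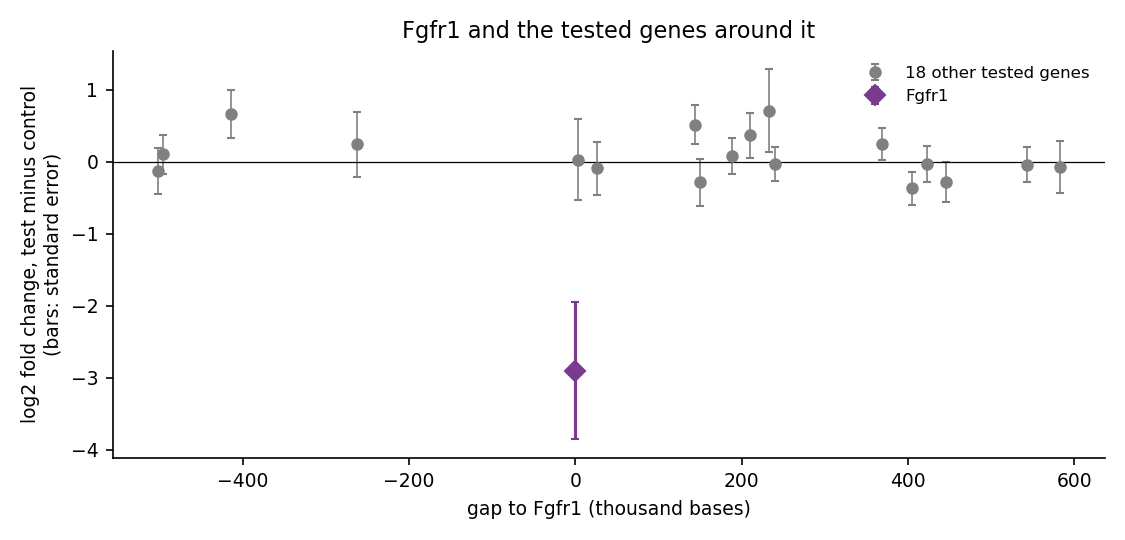
Log2 fold change, test minus control, with standard error for *Fgfr1* (diamond) and the 18 other tested genes within 1 Mb, by the gap to *Fgfr1* in kb. *Fgfr1* lies at -2.90 and the other genes scatter about 0 with a median of -0.0058.

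The genes most like *Fgfr1* over the 6 tumors were found by the root mean square difference of centered log2(CPM + 0.5) among 10227 tested genes with a mean of at least 10 CPM. The nearest was *Mme*, which encodes the membrane peptidase neprilysin, with a difference of 0.17. *Mme* was at 358, 12.1 and 145 CPM in control tumors and 20.4, 16.5 and 21.96 CPM in test tumors. *Zfp365* (0.32), *Cpt1c* (0.35), *Pi15* (0.40) and *Col4a2*, a basement membrane collagen gene (0.40), came after it. *Fgf1* ranked 207th by this measure, *Fgfr2* 2409th and *Fgfr3* 4382nd, while *Fgfr1* ranked 51st among the genes most like *Fgfr4*.

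The genes most like *Fgfr2* were others, led by the protease inhibitor gene *Serpina3n* (0.18), *Ndrg2* (0.26), the laminin gene *Lama1* (0.31), *Synm* (0.32) and *Tns1* (0.33). *Serpina3n* was at 26.5, 13.2 and 83.2 CPM in control tumors and 100, 21.4 and 13.1 CPM in test tumors. It was high in control replicate 3 and test replicate 1, as *Fgfr2* was. With 6 tumors these orders describe the samples at hand.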

How the data were processed

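RNA of 6 mouse breast tumors had been sequenced, and the sample labels put 3 in the test and 3 in the control group. Each tumor came from another mouse. The edgeR, DESeq2 and limma tests judge a difference between the groups against the spread between these tumors. Per the study's methods, reads were aligned to mm10 with Bowtie, and the submitters' processing notes list Bowtie, BWA and RSEM. The annotation release is not given in the sources used here. The authors deposited 3 values per gene in each tumor. These are an expected count without normalization by the authors, an FPKM that the authors normalized for length and depth, and the length in bases. A gene not listed in a tumor was set to 0.

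The rounded expected counts were tested in R 4.3.3 with edgeR 4.0.16 (filterByExpr, TMM, quasi-likelihood test, 3 against 3, no covariate), with Benjamini-Hochberg adjustment over 13706 genes and a false discovery rate of 0.05. CPM use TMM library sizes. Exact permutation tests were two-sided over 20 splits. They used log2(CPM + 0.5) for single genes and for the ratio of *Fgfr1* to *Fgfr2*. Sums of FPKM and the share of *Fgfr1* were tested without a log. Total expected counts per tumor of 8373390 to 9449565 set the depth, and the biological coefficient of variation was 0.434. A floor of 3 counts was taken as the smallest level shown, and it covers counting error only. Of 18460 identifiers, 18400 matched the RefSeq table of GRCm38.p6. The scripts were tested on simulated data. DESeq2 1.42.0, limma 3.58.1 and the other alternatives are given in the closing section.

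The 10 genes, the pathway lists and the marker lists were chosen with earlier results of these data known. Named genes were the 10 members, up to 4 genes per pathway list with the smallest unadjusted p under 0.05, 10 genes named regardless (*Spry1*, *Spry2*, *Spry4*, *Dusp6*, *Etv4*, *Etv5*, *Esrp1*, *Esrp2*, *Fgfrl1* and *Frs2*), the 5 genes most like *Fgfr1* and *Fgfr2*, the 4 nearest tested neighbors of *Fgfr1*, *Tslp* and *Rag1*. Deviations from the group means correlated at -0.02, 0.12 and -0.14 between tumors with the same replicate number, and the mice differ, so the numbers do not pair the tumors.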

Additional observations from a re-analysis of the deposited data

How the results depend on the processing

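Alternatives were DESeq2, RLE normalization, no filter on low counts, at least 10 counts in every tumor, limma on log2(FPKM + 1) and log2(FPKM + 0.1), each tumor left out in turn, a pooled Poisson test and a block for the replicate number. Counts of the pathway lists with DESeq2 and with each tumor left out were added after the data were seen. Over the whole table edgeR called 0 genes, with 1153 at an unadjusted p under 0.05, while DESeq2 called 313, limma on log2(FPKM + 1) called 1, the Poisson test 9584, and leaving out 1 tumor gave 0 to 182, the last without control replicate 2. At the stricter thresholds of the study (0.001 and a log2 ratio of 1) DESeq2 called 50 and the Poisson test 1617, against 0. Of the FGF genes, DESeq2 called 2, the Poisson test 4, and leaving out 1 tumor gave 0 to 2, where 2 came without control replicate 2. At an unadjusted p under 0.05, the number of members fell from 2 to 1 with at least 10 counts in every tumor, where *Fgfr4* was not tested. Each limma fit also gave 1, *Fgfr4* on log2(FPKM + 1) and *Fgf8* on log2(FPKM + 0.1), and *Fgfr1* passed in neither. The limma fits kept genes with a mean of at least 1 FPKM. *Fgfr4* and *Fgf8* reached it only through control tumors where they were high, so these p-values are no support for a difference. The number was 4 under the Poisson test, and 1 (without control replicate 1) to 4 (without control replicate 2, *Fgf8* among them) with a tumor left out. With the replicate block, 0 members had an unadjusted p under 0.05 and the log2 fold change of *Fgfr1* was -2.11. No other call changed with the block, and only test replicate 2 correlated best with its own number. The direction reversed for *Fgf7* with the block (0.027) and between -0.44 and 0.57 with a tumor left out, for *Fgfr2* between -1.28 and 0.80, and for *Fgfr3* between -0.20 and 0.65. *Fgfr1* kept its direction in 14 of 14 alternatives (-3.45 to -1.99), *Fgf1* in 14 (-1.70 to -0.75) and *Fgfr4* in the 13 that tested it (-5.01 to -1.82). The cause of these shifts was not tested. Depth limits *Fgf2*, *Fgf10* and *Fgf18*, which had at most 12.1 counts in any tumor.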

Other observations

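Intracellular FGF homologous factors, which stay inside the cell and bind sodium channels rather than receptors, were mostly too low to test. Only *Fgf13* of 4 passed the filter on low counts. *Fgf12* was at 16.9, 0.324 and 5.01 CPM in the control tumors and 0.346, 0.488 and 0.424 CPM in the test tumors, high in control replicates 1 and 3 alone. It was named after its values were seen. Without control replicate 2 it passed the filter on low counts only through control replicates 1 and 3, where it was high. Its log2 fold change was then -4.66, and its p in that fit is no support for a difference. *Fgf23*, the hormone of phosphate balance, had 28 expected counts in test replicate 3, 8 in test replicate 2 and at most 2 in each other tumor, and it was also named after its values were seen. The basal marker *Trp63* was at 371 CPM in control replicate 1 and at 6.47 to 58.5 CPM in the other 5 tumors. The basal markers as a list did not follow it. Their sum was 915 CPM in control replicate 1 and highest in control replicate 3, at 3547 CPM.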
